A study of Mus musculus with 6 samples.

Results

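The transcripts of 7 intermediate filament genes, Des, Vim, Synm, Nes, Krt8, Krt18 and Lmna, were described in single cells of the mouse aortic root and ascending aorta. The genes were chosen by symbol from the 31055 features of the count matrix, with results of these cells already known, and each symbol matched 1 feature. The study compared control (CTL) mice with mice carrying a Tgfbr1 missense allele that models Loeys-Dietz syndrome (LDS), an inherited disorder with aortic root aneurysm. Female mice on a 129 background were used at 16 weeks of age, with 1 library per mouse. By their labels, 2 CTL mice were Tgfbr1+/+, 2 CTL mice were Tgfbr1+/+ with Wnt2CRE and EGFP-L10a, and 2 LDS mice were Tgfbr1M318R/+ without the tracer. Wnt2CRE is a driver that marks cells of cardiac neural crest origin through the EGFP-L10a allele, and the tracer was carried by CTL mice alone.

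The 6 libraries were distinguished by the number that ends each cell barcode, and no label pairs that number with a mouse. CTL and LDS cells were therefore not compared, and libraries 1 to 6 below are libraries of unknown genotype. Of 30716 barcodes, 24972 passed the filters on genes, unique molecular identifiers (UMIs) and mitochondrial UMIs. The passing cells of a library held between 18218282 and 38105145 UMIs, with a median per cell between 5572 and 9838, and libraries 2 and 6 had the deepest cells. Clustering gave 10351 vascular smooth muscle cell (VSMC)-like, 13488 fibroblast-like, 567 endothelial-like and 549 leukocyte-like cells. Summed VSMC markers were at 65929 CPM (UMIs per 1000000 UMIs of the group) in the median library of VSMC-like cells and at 1908 CPM in fibroblast-like cells. Subclusters of VSMC-like cells were named VSMC1-like (8375 cells, high Tes and Ptprz1) and VSMC2-like (1700 cells, high Enpep and Notch3), and 276 Rgs5-high cells were kept apart. Before the filters, 1612 barcodes were found in more than 1 library. Pairs among libraries 1, 3, 4 and 5 shared between 10.2% and 27.2% of the barcodes of the smaller library. Libraries 2 and 6 shared 10.7%, and every other pair shared at most 0.264%. The part of this sharing in the values per library was not tested. After the filters, 76 pairs of passing cells in different libraries shared a barcode. The median cosine between their profiles was 0.612, against 0.592 for the same cells paired at random.

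Intermediate filaments are rope-like polymers that give a cell its resistance to stretch. Desmin and vimentin form homopolymers and copolymers in muscle and mesenchymal cells, while synemin and nestin are large partners that assemble only together with them. Desmin filaments tie the contractile apparatus to dense bodies and to the plasma membrane. Keratins 8 and 18 are the obligate pair of simple epithelia, type II and type I respectively, and are also made at low level in some smooth muscle. A-type lamins, encoded by Lmna, line the inner nuclear membrane, and their amount is known to follow tissue stiffness.

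Des was at chr1:75360329-75368579 (mm10, plus strand), Vim at chr2:13573927-13582826 (plus) and Synm at chr7:67730160-67759742 (minus). Nes was at chr3:87971078-87980451 (plus) and Lmna at chr3:88480147-88509956 (minus). Krt8 at chr15:101996698-102004482 (minus) and Krt18 at chr15:102028180-102032027 (plus) were neighbours in opposite orientation, with 23697 bases between them. Annotated genes on the other strand overlapped Des, Krt8 and Synm (Gm15179, Gm36026 and Ttc23), and how the counting treated strand is not given in the sources used here.

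The 250 bases before the RefSeq start sites (GRCm38.p6) are shown for the keratin pair, and for Des and Synm, whose levels changed in opposite directions between the VSMC subtypes. Capitals mark E-boxes (CANNTG) and GC boxes (GGGCGG) on either strand. The windows are chr1:75360042-75360291 (plus) for Des, chr7:67759743-67759992 (minus) for Synm, chr15:102004343-102004592 (minus) for Krt8 and chr15:102027966-102028215 (plus) for Krt18.
Des: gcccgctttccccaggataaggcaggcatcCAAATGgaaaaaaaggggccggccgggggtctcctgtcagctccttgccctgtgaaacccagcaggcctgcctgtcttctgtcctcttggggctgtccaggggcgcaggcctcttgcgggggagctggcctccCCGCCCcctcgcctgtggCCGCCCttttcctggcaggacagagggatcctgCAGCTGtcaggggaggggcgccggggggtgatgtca
Synm: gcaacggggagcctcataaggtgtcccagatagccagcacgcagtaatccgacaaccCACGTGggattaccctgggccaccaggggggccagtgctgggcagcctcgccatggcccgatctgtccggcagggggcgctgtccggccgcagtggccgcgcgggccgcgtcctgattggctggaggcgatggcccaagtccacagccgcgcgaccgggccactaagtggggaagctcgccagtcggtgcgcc
Krt8: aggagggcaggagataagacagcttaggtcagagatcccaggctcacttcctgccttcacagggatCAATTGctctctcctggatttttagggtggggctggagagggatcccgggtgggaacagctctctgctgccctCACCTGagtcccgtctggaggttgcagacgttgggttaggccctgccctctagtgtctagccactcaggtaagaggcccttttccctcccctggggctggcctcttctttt
Krt18: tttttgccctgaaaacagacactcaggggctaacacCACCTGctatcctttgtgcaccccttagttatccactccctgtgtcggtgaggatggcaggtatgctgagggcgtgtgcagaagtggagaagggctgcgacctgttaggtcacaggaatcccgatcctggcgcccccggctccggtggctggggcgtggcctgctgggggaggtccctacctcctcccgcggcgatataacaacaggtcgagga
The Des window held 2 GC boxes and 2 E-boxes, the nearer one starting 36 bases before the start site. The Synm and Krt18 windows held 1 E-box each and the Krt8 window held 2. E-boxes were present in 66.2% and GC boxes in 32.7% of 32851 promoter windows of the same length. A CArG box, the core of the serum response element of many smooth muscle genes, was absent from the windows of all 7 genes and was found in 1.47% of all windows. The Vim window held a TATA box (TATAAA, in 12.4% of windows) starting 32 bases before the start site, and no other member's window held one. The AP-1 motif (TGANTCA, in 6.75% of windows) was in none of the members' windows.

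Most of the members were higher in VSMC-like than in fibroblast-like cells, and 1 was nearly level between them. Des, Krt18, Synm, Nes and Vim were higher in VSMC-like cells in all 6 libraries, and Lmna was not called. A gene was called when its log2 ratio had the same sign in all 6 libraries and a median of at least 0.5 in size, among genes with at least 10 CPM in the median library of either cell group. By this rule 1641 of 8701 genes (18.9%) were called higher in VSMC-like cells, 2086 (24.0%) lower, and 42.8% in either direction. No test was made, since the same cells defined the clusters and the libraries, whose genotype is not known here, do not form replicate groups.

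Des in VSMC-like cells was lowest at 288 CPM, with a median of 329 and a highest value of 486. In fibroblast-like cells it lay between 4.49 and 38.1 CPM, with a median of 6.76, and the groups did not overlap. The median log2 ratio was 5.62 (range 3.52 to 6.21), and 23 of the 8701 genes had a higher one. Fibroblast-like cells of libraries 1 and 5 held the most Des, 16.5 and 38.1 CPM, and also the most summed VSMC markers, 3584 and 5674 CPM against 1432 to 2286 CPM in the other 4 libraries. VSMC-like cells were 51.2% and 59.0% of those libraries, and the part of free RNA or of mixed barcodes in the fibroblast values was not tested. Leukocyte-like cells, which should lack desmin, had a Des UMI in 2.31% of cells of the median library after each cell was thinned to 3000 UMIs, close to the 2.13% of fibroblast-like cells.

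Krt18 was measured between 16.4 and 62.0 CPM in VSMC-like cells (median 32.5) and between 0.118 and 1.63 CPM in fibroblast-like cells (median 0.907). All VSMC values lay above all fibroblast values, with a median log2 ratio of 5.25 and a highest value of 7.13. Krt8, its partner, fell below the 10 CPM limit in both groups, with 243 UMIs in all VSMC-like cells and 19 in all fibroblast-like cells. The ratio of those sums was 14.3-fold (95% counting interval 8.96 to 24.2). That interval treats UMIs as independent, while 9 of the 19 fibroblast UMIs lay in 1 cell of library 3. Of the 243 VSMC UMIs, 97 lay in 27 cells of library 2. Mesothelial cells are a keratin-rich epithelium that can be carried over from the aortic surface. Only 1 passing cell had UMIs of at least 3 of 7 mesothelial markers, and it held UMIs of Krt8, Krt18 and Krt19. The summed markers were at 0 CPM in the median library of VSMC-like cells, with a highest value of 0.164. In fibroblast-like cells their median was 0.817 CPM and their highest value 1.98. The part of mesothelial cells in the keratin counts was not tested.

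Synm was at 31.2 to 48.9 CPM in VSMC-like cells and at 7.42 to 10.9 in fibroblast-like cells. The log2 ratio had a median of 2.17 over libraries (lowest 1.52, highest 2.29). Endothelial-like cells held a median of 29.6 Synm CPM (23.4 to 37.5), which overlapped the VSMC-like range, and leukocyte-like cells were near background at 2.31 CPM. Nes was at 38.1 to 69.7 CPM in VSMC-like cells and at 9.23 to 20.4 in fibroblast-like cells, with a log2 ratio of 2.05 (1.67 to 2.69). The order of its medians was VSMC-like (58.3 CPM), endothelial-like (41.8), leukocyte-like (29.6) and fibroblast-like (10.3), and the endothelial range of 12.8 to 70.2 CPM spanned those of both its neighbours. Endothelial-like cells numbered between 10 and 256 per library.

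Vim had a median of 6247 CPM in VSMC-like, 4223 in endothelial-like, 3410 in fibroblast-like and 1541 in leukocyte-like cells. The VSMC-like range of 5116 to 9478 CPM and the fibroblast-like range of 2910 to 6509 overlapped between libraries, while within each library the VSMC value was the higher one, by a median log2 ratio of 0.75 (0.54 to 1.10). Vim was highest in libraries 2 and 6 in both cell types, at 9478 and 9352 CPM in VSMC-like cells and 6509 and 4772 CPM in fibroblast-like cells. These were also the libraries with the deepest cells. They shared 10.7% of barcodes with each other and at most 0.264% with any other library. The part of depth, or of whatever else sets these libraries apart, was not tested. Lmna was at 632 CPM in VSMC-like cells (563 to 746) and 596 CPM in fibroblast-like cells (514 to 652). The ranges overlapped, and the median log2 ratio was 0.08, with 5 libraries higher and 1 lower. Lmna was lower in endothelial-like cells (median 453 CPM, 358 to 554) and lowest in leukocyte-like cells (262, 160 to 452), whose ranges overlapped each other.

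**Figure D1:**
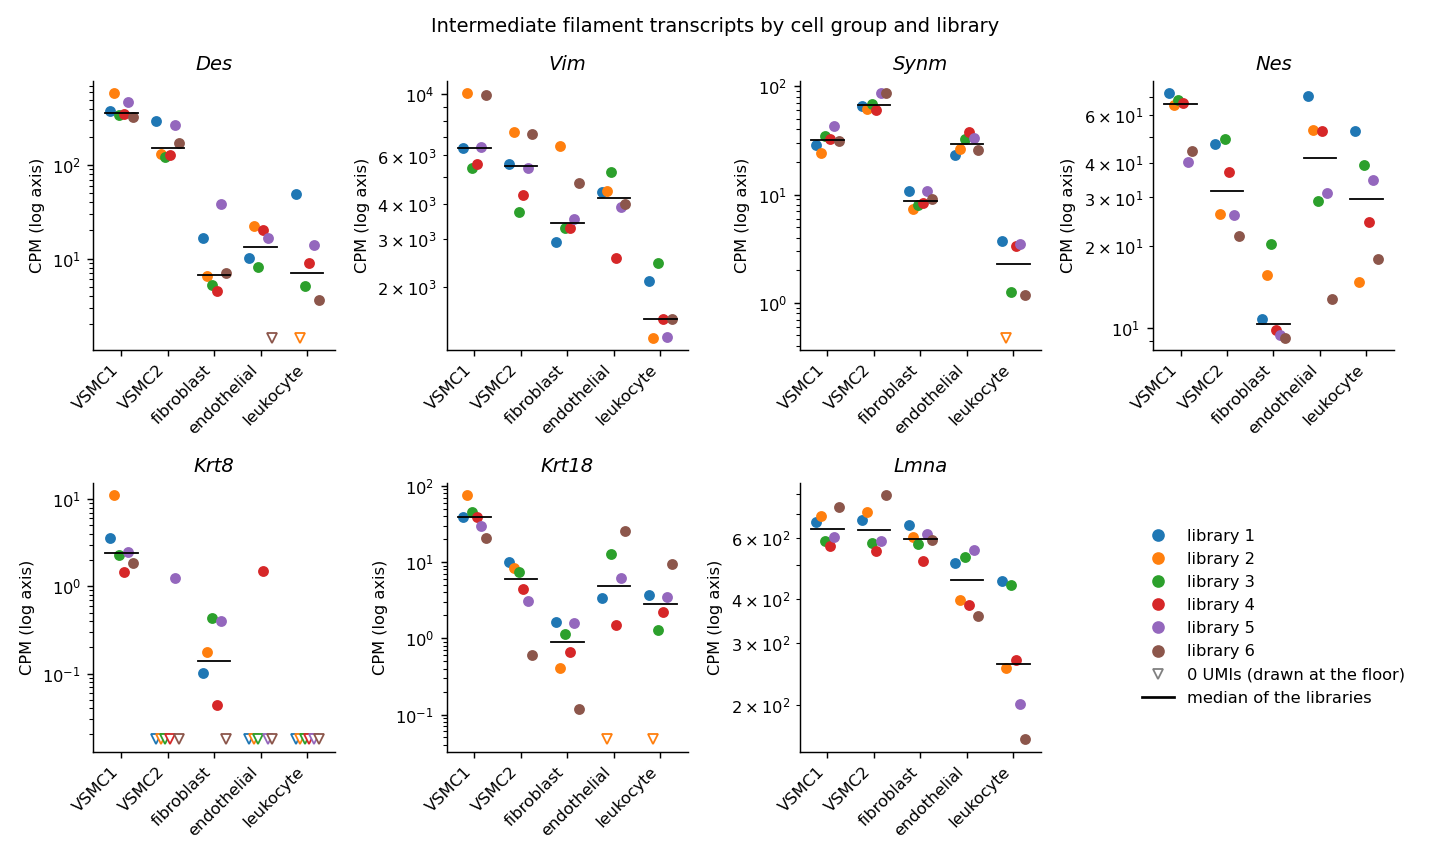
CPM of each of the 7 genes (log axis, 1 panel per gene) in 5 cell groups, with 1 point per library and a bar at the median of the libraries; open triangles mark libraries with 0 UMIs. Des and Krt18 of VSMC1-like and VSMC2-like cells do not overlap, Synm is highest in VSMC2-like cells, and Lmna is level across VSMC1-like, VSMC2-like and fibroblast-like cells.

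The members split by direction between the VSMC subtypes. In VSMC2-like cells Des, Krt18 and Nes were called lower and Synm was called higher than in VSMC1-like cells of the same library. Vim was lower in all 6 libraries but by less than the limit, and Lmna had ratios of both signs. Of 7997 genes, 548 (6.85%) were called higher, 563 (7.04%) lower and 13.9% in either direction, and the median of all genes was -0.05. Of 6 members that passed the limit of 10 CPM, 4 were called, and no weight is given to that share, since the genes were chosen with such results known.

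Among the members abundant enough for a call, Krt18 had the lowest ratio. It was at 20.7 to 75.9 CPM in VSMC1-like cells (median 39.1) and at 0.602 to 10.1 CPM in VSMC2-like cells (median 5.99). The groups did not overlap, the median log2 ratio was -3.13 (-4.86 to -1.95), and 10 of the 7997 genes had a lower one. Over all cells 2686 Krt18 UMIs were counted in VSMC1-like and 71 in VSMC2-like cells. Krt8 had 239 UMIs in VSMC1-like cells and 4 in VSMC2-like cells, all 4 in library 5. Per UMI sequenced, Krt8 was 12.01-fold more abundant in VSMC1-like cells (95% counting interval 4.63 to 44.4). This interval also treats UMIs as independent, while 97 of the 239 VSMC1-like UMIs lay in 27 cells of library 2. Both keratins were scarce in VSMC2-like cells, and at equal depth a Krt18 UMI was found in 9.94% of 7898 VSMC1-like and 1.23% of 1632 VSMC2-like cells.

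Des in VSMC1-like cells was lowest at 328 CPM, with a median of 364 and a highest value of 586. In VSMC2-like cells it ran from 123 to 295 CPM with a median of 151. No VSMC2-like value reached the lowest VSMC1-like value. The log2 ratio had a median of -1.20 and an SD of 0.63 over libraries, from -0.36 in library 1 to -2.15 in library 2. Nes, the other called loss, ranged over 21.7 to 48.9 CPM in VSMC2-like cells against 40.6 to 72.1 CPM in VSMC1-like cells. These ranges overlapped, and the ratio within a library was lower in all 6, with a median log2 of -0.74 (-1.33 to -0.48).

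Synm moved the other way. It was at 24.2 to 42.6 CPM in VSMC1-like cells (median 31.8) and at 60.7 to 86.2 CPM in VSMC2-like cells (median 66.6), without overlap. The median log2 ratio was 1.10 (0.90 to 1.46), and 274 of 7997 genes had a higher one. Synm was thus higher where the transcripts of its assembly partners Des and Vim were lower, in each of the 6 libraries. In VSMC2-like cells Vim ranged over 3733 to 7285 CPM, against 5404 to 10079 CPM in VSMC1-like cells, with a median log2 ratio of -0.42 (-0.53 to -0.19). Lmna was at 634 CPM in the median library of VSMC1-like cells and at 632 CPM in VSMC2-like cells. Its log2 ratio lay between -0.05 and 0.11, positive in 3 libraries and negative in 3, and the ratio of the sums was 1.00 (95% counting interval 0.977 to 1.02).

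Transcripts of other cells and of tissue dissociation differed between the subtypes. Summed fibroblast markers were at 1556 CPM in the median library of VSMC1-like cells (908 to 2043) and at 2102 CPM in VSMC2-like cells (951 to 5170). Of 23 dissociation genes 17 were called higher in VSMC2-like cells, against 6.85% of all genes. Dissociation transcripts made up 1.21% of UMIs in the median VSMC1-like cell and 2.46% in the median VSMC2-like cell. With VSMC1-like cells matched to VSMC2-like cells on that share within each library, the median log2 ratios were -1.06 for Des, -2.87 for Krt18, -0.68 for Nes and 1.17 for Synm. A subcluster of 249 cells, led by Cygb, Clec3b and Abca8a and carrying fibroblast transcripts, lay within VSMC2-like cells, and 59.4% of its cells were among the 5% of each library with the highest doublet scores. Without it the values were -1.24, -3.56, -0.68 and 1.31 in the same order, in a calculation added after the data were seen.

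**Figure D2:**
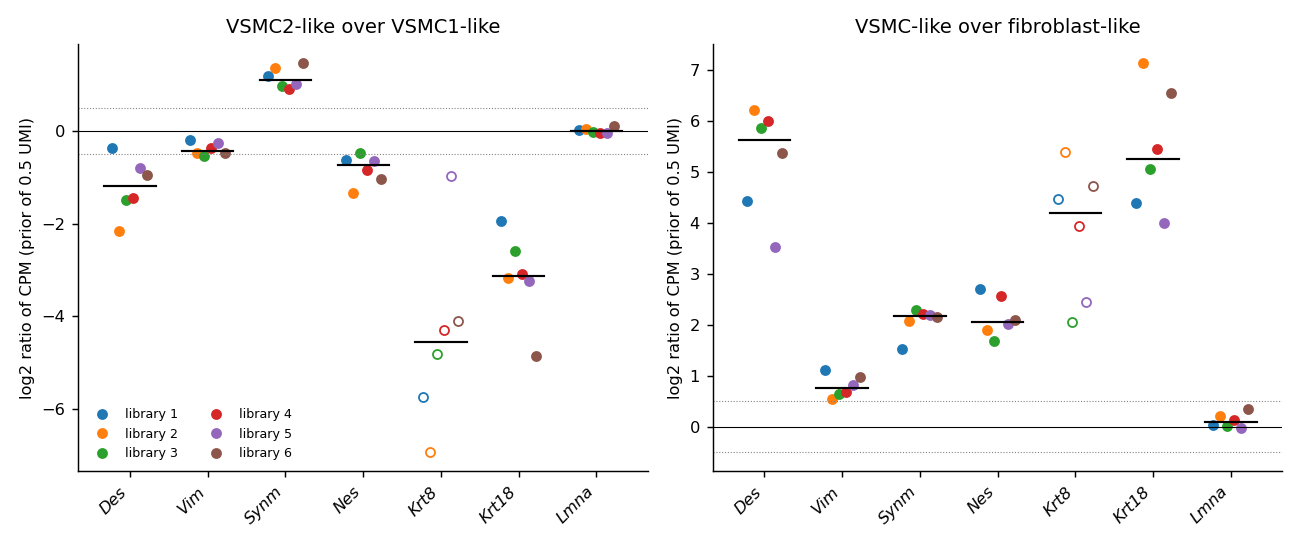
Log2 ratio of CPM (vertical axis) of each gene in VSMC2-like over VSMC1-like cells (left) and VSMC-like over fibroblast-like cells (right), with 1 point per library, a bar at the median and dotted lines at the limits of 0.5 and -0.5. Open points mark Krt8, which was below the abundance limit and whose values depend on the prior of 0.5 UMI; Synm is above 0 and Des, Nes and Krt18 are below 0 in all 6 libraries on the left.

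The partners of these filaments were read from lists drawn up with earlier results of these cells known, so no weight is given to the counts called. Of all 7997 genes, 7.04% were called lower in VSMC2-like cells and 6.85% higher. Of 33 genes for linkers and partners of cytoplasmic filaments, 25 were abundant enough, 5 were called lower and 1 higher in VSMC2-like cells, and their median log2 ratio was -0.20. The genes called lower were Dsp (-2.21), encoding desmoplakin, which anchors filaments at desmosomes, Flnc (-1.44), encoding filamin C, Sgcd (-1.31), encoding delta-sarcoglycan, Pkp4 (-1.11), encoding plakophilin 4, and Dmd (-0.70), encoding dystrophin. Dmd and Pkp4 are named after their values were seen. The median of Dsp was 27.6 CPM in VSMC2-like cells, against 114 CPM in VSMC1-like cells. Hspb1, a small heat shock protein that is also on the dissociation list, was called higher (0.84, 2523 against 1434 CPM), while the chaperone genes Bag3 (0.26) and the protease Capn1 (0.40) were higher in all 6 libraries without passing the limit. Of all 8701 genes, 18.9% were called higher in VSMC-like than in fibroblast-like cells and 24.0% lower. In that comparison 18 of 26 genes of the list were called higher and 3 lower, with a median log2 ratio of 1.47. Dsp (3.05), Flnc (1.88) and Sgcd (1.52) were among the higher ones and Bag3 (-0.58) and Capn1 (-1.23) among the lower.

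Of 25 genes of the nuclear envelope and of lamin processing, 19 were abundant enough, and their median log2 ratio was -0.01. Of the 19, 0 were called in either direction between VSMC2-like and VSMC1-like cells, against 13.9% of all genes. Syne2 (0.32), Nup88 (0.24) and Tmpo (0.23) had the highest values, and Sun2 (-0.31), Zmpste24 (-0.28) and Narf (-0.20) the lowest. Sun2 and Syne2 encode parts of the bridge between the nuclear lamina and the cytoskeleton, and Zmpste24 encodes the protease that matures prelamin A. Against fibroblast-like cells 7 of 20 were called higher in VSMC-like cells and 0 lower, where 18.9% and 24.0% of all genes were. Sun2 was higher by the most (1.84), followed by Syne1 (1.59). Of 26 other intermediate filament genes only Krt10 and Sync passed the limit. Sync, encoding syncoilin, a desmin partner of muscle, was called lower in VSMC2-like cells (-0.86, 17.1 against 31.0 CPM) and higher in VSMC-like than in fibroblast-like cells (2.95). For Krt10 the medians were 22.2 CPM (VSMC2-like) and 19.8 CPM (VSMC1-like). The contractile list, set beside these, had 17 of 17 genes measured, 0 called and a median log2 ratio of 0.01 between the VSMC subtypes.

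At the level of single cells Des was patchy. After thinning to 3000 UMIs, 65.4% of VSMC1-like cells held 0 Des UMIs although the mean was 1.13, and 7.98% held at least 5. By library, the share at 0 lay between 58.8% and 76.6%, where counts spread evenly at the same mean (a Poisson distribution) would leave between 19.0% and 40.1%. The highest count in a thinned cell was 22. The Fano factor, the variance over the mean, was 4.23 for Des in VSMC1-like cells and 3.82 in VSMC2-like cells, and is 1 for even counts. Lmna was close to even, with a Fano factor of 1.17 and 17.2% of cells at 0. The fall of Des in VSMC2-like cells was seen in both parts of the distribution, with 77.6% of cells at 0 and 3.13% with at least 5 UMIs.

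Krt18 was sparse at this depth, with a mean of 0.121 UMIs, a Fano factor of 1.39 and at least 2 UMIs in 1.68% of VSMC1-like cells. Exactly 2 UMIs were held by 1.37% of cells and 3 by 0.228%. A Poisson distribution of the same mean would give 0.653% and 0.0264%. The Fano factor nears 1 as the mean falls, so it does not rank the patchiness of Krt18 against that of Des. Synm (1.07) and Nes (1.10) had Fano factors near 1 at low means of 0.0977 and 0.171 UMIs. The same limit applies to them, so even counts were not shown. Vim was found in all but 0.0506% of VSMC1-like cells, with a median of 18 UMIs and a Fano factor of 5.03, which covers differences between libraries as well as between cells. In fibroblast-like cells the Fano factor of Vim was 9.18, with a median of 8 UMIs.

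**Figure D3:**
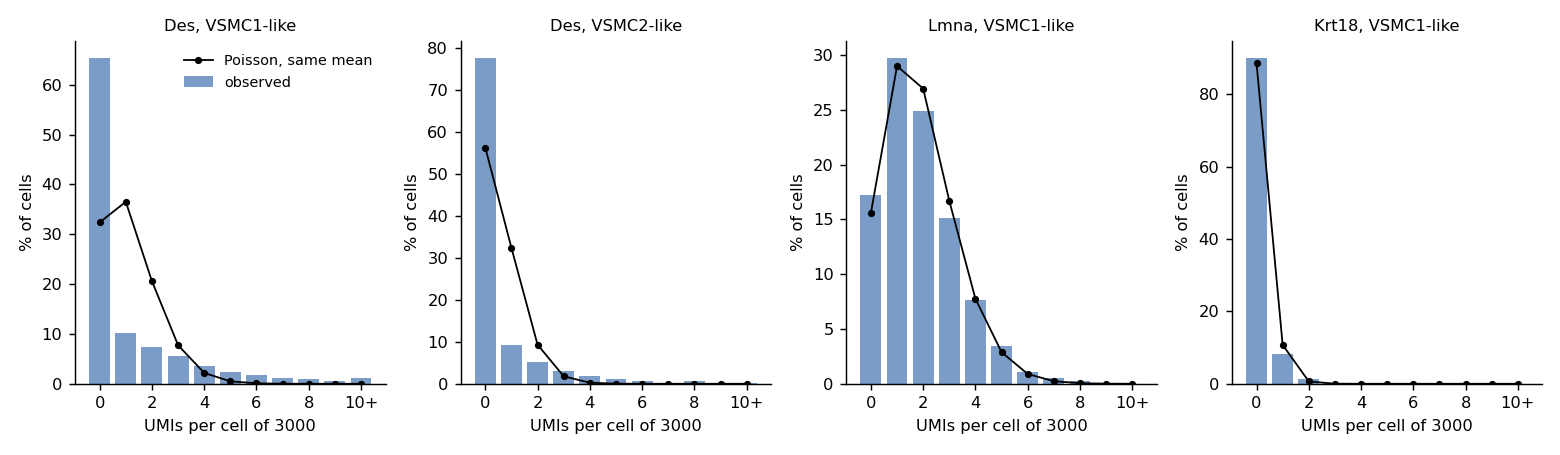
Share of cells (vertical axis, %) with each number of UMIs after thinning to 3000 UMIs per cell (horizontal axis; 10+ is 10 or more), as bars, with a Poisson distribution of the same mean as points. Des exceeds the Poisson share at 0 in VSMC1-like cells (65.4%) and in VSMC2-like cells (77.6%), while at 0 Lmna and Krt18 lie close to it. Krt18 exceeds the Poisson share at 2 UMIs (1.37% against 0.653%).

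VSMC1-like cells with and without Des were then set side by side, in a comparison added after the data were seen. After thinning, 1924 cells had at least 2 Des UMIs and 5167 had 0. Among the other members Vim had a median log2 ratio of 0.02, Lmna -0.08, Krt18 -0.05, Synm 0.38 (positive in 6 libraries) and Nes 0.50 (positive in 5). Krt8, below the abundance limit, had 1.17 (4.19 against 1.62 CPM, positive in 4 libraries and negative in 2). By the same call rule 117 of 7890 genes (1.48%) were called, 47 higher and 70 lower. The highest ratios were those of Unc45b (2.81, 16.3 against 1.85 CPM), encoding a chaperone of muscle myosin, Corin (1.92), encoding a natriuretic peptide convertase, and Psd (1.92). Tnnt2, encoding cardiac troponin T, was called higher as well (1.41, 203 against 82.2 CPM). The lowest were Epha3 (-2.78) and Fmo1 (-2.41), and Cxcl1 was also called lower (-1.41, 13.0 against 39.0 CPM). The contractile genes Acta2 (0.05) and Myh11 (0.21) were not called. These genes are named after their values were seen, and cells of 1 library are not independent samples.

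Members were counted together in the same thinned VSMC1-like cells. Of 58 cells with a Krt8 UMI, 13 (22.4%, 95% exact interval 12.5 to 35.3) also held Krt18, against 9.85% of cells without Krt8, and the share was higher in 5 of 6 libraries. Des was found in 33 of the same 58 cells (56.9%, 43.2 to 69.8) and in 34.4% of the others, higher in 4 libraries. Synm was found in 10.5% of cells with Des and 8.19% of those without, higher in all 6 libraries. Krt18 was found in 10.6% of cells with Des and 9.58% of those without, higher in 4. These intervals cover counting error alone.

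Finer subclusters of the VSMC-like cells, made without the members among the genes used for clustering, separated the genes further. Des was highest in a subcluster led by Tnnt2, Psd and Ednrb, with a median of 939 CPM over 6 libraries (626 to 1203) and a UMI in 60.2% of thinned cells. It was next in a subcluster led by Igfbp2 and Akap5 (765 CPM, 372 to 904), whose range overlapped that of the first. The lowest Des was in the Rgs5-bearing subcluster led by Prrx2, Ccl21a and Sfrp2, at 39.9 CPM (3.05 to 126), where Synm was also lowest, at 9.76 CPM (4.15 to 20.5). Synm was highest in a VSMC2-like subcluster led by Olfr558, Pgam2 and Rasd1, at 112 CPM (100.4 to 137.2). The other main VSMC2-like subcluster, led by Ankrd1, Col8a1 and Gja4, held 57.3 CPM (47.5 to 68.0), and these ranges did not overlap.

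Krt18 had its highest median, 63.7 CPM (6.12 to 98.4, 4 libraries), in a subcluster of 122 cells led by Gm12840, Gm20186 and 2900055J20Rik. It was at 50.2 CPM (25.8 to 87.1) in the largest VSMC1-like subcluster, led by Casq1, Tes and Tceal6, and these ranges overlapped. In the Olfr558-led and Ankrd1-led subclusters Krt18 was at 2.48 CPM (0 to 5.91) and 4.32 CPM (0 to 11.3). Krt8 had its highest medians in a subcluster led by Cd74, H2-Aa and H2-Eb1, genes of MHC class II antigen presentation (10.4 CPM, 3.43 to 14.9, 5 libraries), and in the Tnnt2-led subcluster (8.50 CPM, 1.44 to 22.3). Every other subcluster had a Krt8 median of at most 2.72 CPM. Nes was highest, at 75.2 CPM (48.5 to 93.8), in a subcluster led by Fst, Lgals3 and Plaur, and lowest in the Olfr558-led subcluster at 20.9 CPM (13.5 to 47.2). Lmna medians stayed between 570.01 and 737 CPM over the 13 subclusters.

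**Figure D4:**
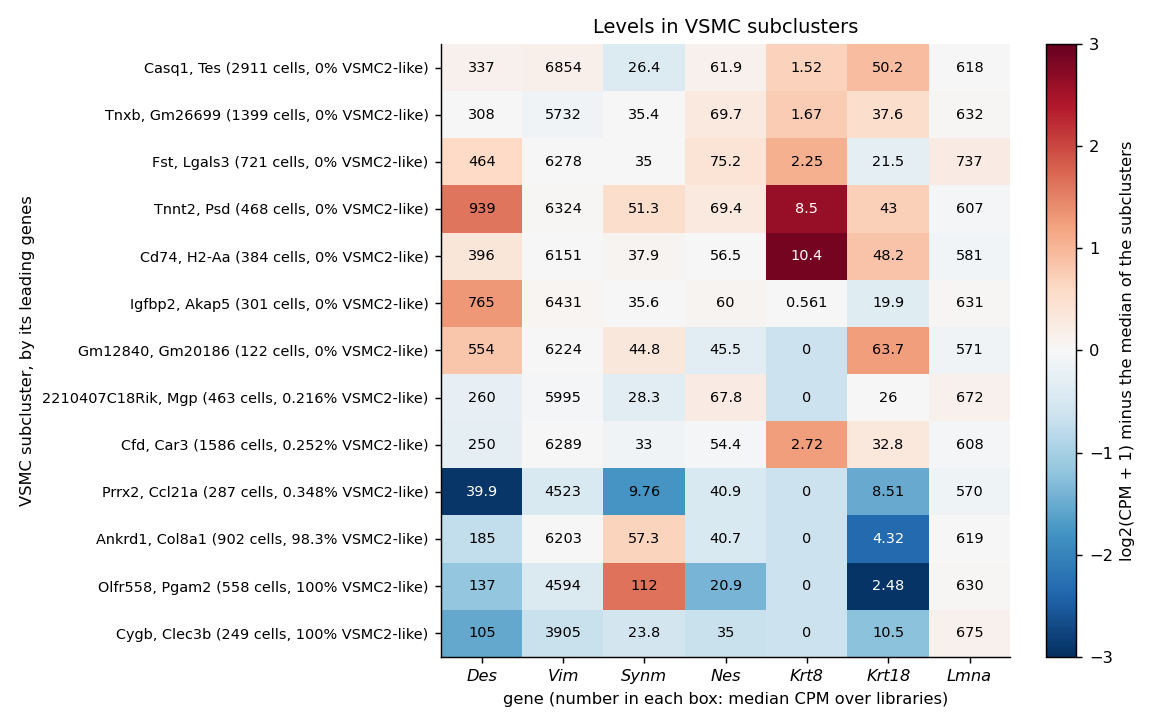
Median CPM over libraries (number in each box) of the 7 genes in 13 VSMC subclusters, each named by its first leading genes with its number of cells and its share of VSMC2-like cells. Colour gives log2(CPM + 1) minus the median over subclusters; Des peaks in the Tnnt2-led subcluster (939 CPM), Synm in the Olfr558-led one (112 CPM), and Lmna stays pale throughout.

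Outside the smooth muscle, the levels of Vim and Nes differed between clusters. Vim had its highest median of any cluster in a fibroblast-like cluster led by Coch, Trf and Prss35, at 8233 CPM (5717 to 16546, 5 libraries), above the VSMC-like median, and its lowest fibroblast median in the cluster led by Ptn, Igfbp3 and Foxd1, at 1791 CPM (1641 to 2757). The ranges of these 2 clusters did not overlap. Nes was also highest among fibroblast-like clusters in the Coch-led one (37.5 CPM, 24.9 to 139). Endothelial-like cells fell into a cluster led by Cd36, Rbp7 and Gpihbp1, with 63.2 Nes CPM (29.5 to 75.0) and 2513 Vim CPM (1699 to 3434), and a cluster led by Ccl21a, Mmrn1 and Nts. The latter held 28.2 Nes CPM (6.81 to 34.2), 6358 Vim CPM (4254 to 6937) and 11.4 Krt18 CPM in 3 libraries.

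The genes most like each member were sought over 81 profiles of 16 clusters by library, with Pearson r of log2 CPM as the measure. Profiles share libraries, and r is given as a description. Des was nearest to Rasl12 (0.91), Acta2 (0.91) and Myl9 (0.91), the latter pair being core contractile genes, and genes near Synm included B230219D22Rik (0.89) and Gjc1 (0.89). Krt8 was nearest to Krt18 (0.69), while Krt18 was nearest to Col18a1 (0.84), Chmp4c (0.84) and 1190005I06Rik (0.84). Vim was nearest to 2010111I01Rik (0.85), Nes to Itga5 (0.74) and Lmna to Fstl1 (0.86). Over 73 profiles of 13 VSMC subclusters, centred within libraries, the neighbours were other genes: Mtus2 for Des (0.85), Smim3 for Krt18 (0.80), Gm13889 for Synm (0.83), Plcb4 for Vim (0.82), Rnf139 for Nes (0.71), Meis2 for Krt8 (0.60) and Plec, the plectin gene, for Lmna (0.62). Among members in these profiles, Des and Vim had r = 0.68, Krt18 and Vim 0.67 and Krt18 and Synm -0.20. Synm had r = 0.43 with Des and 0.18 with Vim in the same profiles, both positive, although between the 2 VSMC subtypes its direction was the opposite of theirs.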

How the data were processed

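The authors made 10x Genomics 3' v3 libraries of cells sorted live from digested aortic root and ascending aorta. They deposited the UMI count of 31055 features in 30716 barcodes as 1 matrix for mm10. The submitters' processing notes name Cell Ranger 6 and the matrix header names 4.0.0. The deposited counts are not normalized, and whether the libraries were subsampled to 1 depth when they were combined is not given in the sources used here. Intronic reads, strand and multimapping settings, which act on 3' counts, are not given either.

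The limits of the study's methods were applied: a gene number between 1000 and 5000, a UMI total between 1500 and 25000, and a mitochondrial share below 20%. Passing cells were normalized with SCTransform and integrated by library (RPCAIntegration, 30 components) without 89 genes of the members and their lists. They were clustered at a resolution of 0.25, and at 1 for finer clusters of all cells, in Seurat 5.3.0 (R 4.3.3). VSMC-like cells were clustered again without 327 listed genes (165 of them variable), at 0.05, the first resolution with exactly 2 subclusters of at least 5% of cells, and at 0.5 for finer subclusters. Cells with transcripts of cardiomyocytes (17 cells) were left out. A cluster was named from at least 3 markers. No doublet was removed in the main values; an alternative left out the 5% of cells per library with the highest scrublet score (scanpy 1.11.5). Counts were summed per group and library in Python 3.11.15, divided by all UMIs (CPM), and compared as log2 ratios with a prior of 0.5 UMI. A reported ratio is the median over 6 libraries and need not equal the ratio of the median CPM values. For shares of cells, each cell was thinned to 3000 UMIs and 2037 shallower cells were left out. Intervals are 95% exact intervals for counting error. The ratio script was tested on simulated data. Members and lists were chosen with earlier results of these data known. Named genes are the members, the 3 highest and 3 lowest of each list between the VSMC subtypes, the 3 nearest genes of each member and the 3 leading genes of a cluster that a sentence turns on; others are said to be named later. Some items are not reported here. Alternatives changed the clustering, doublets, depth, prior and filters, and each library was left out in turn. CTL and LDS were not compared. Coordinates are from GENCODE M21, 1-based.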

Additional observations from a re-analysis of the deposited data

Results flagged for a closer look

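Of 42 sets of 6 library values, 5 held a library that stood apart by Dixon's criterion. Chance gives this in about 1 of 20 independent sets of normal values. These sets overlapped, as VSMC1-like cells are part of VSMC-like cells, so 5 of 42 cannot be set against that rate. Krt8 was highest in library 2, at 11.2 CPM in VSMC1-like cells (next 3.60) and 8.76 CPM in VSMC-like cells (next 3.08). In VSMC2-like cells Krt8 was at 1.24 CPM in library 5 and at 0 in the others, from 4 UMIs. UMIs in 1 library alone always meet the criterion. Des in fibroblast-like cells was highest in library 5, at 38.1 CPM (next 16.5), where VSMC markers in those cells were also highest. The log2 ratio of Synm between VSMC-like and fibroblast-like cells was lowest in library 1, at 1.52 (next 2.06).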

How the results depend on the processing

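Of 242 values under alternatives, 231 stayed within 1 SD of the libraries (ratios) or 1.5 times the main count, and 0 reversed a called direction. Part of that 0 was fixed in advance. A call needs the same sign in all 6 libraries, so leaving out a library could not reverse it. Gene counts and ratios that were not called could not count as reversed. Des, Vim, Krt18, Synm and Nes kept their sign between the VSMC subtypes under all 18 alternatives each. Those that left out a library could not change it, since the sign was the same in every library. Without cells holding more than 1 UMI of Dcn, Lum and Pdgfra, the log2 ratio of Synm moved to 1.60 and that of Nes to -1.09. With log-normalized counts and no integration Synm moved to 1.40. With a prior of 5 UMIs Krt8 moved to -1.70 between the VSMC subtypes and to 1.98 against fibroblast-like cells, so its fitted ratio is no bound. Genes called between the VSMC subtypes (1111) numbered 1860 from 1 CPM, 2003 with no filter on low values and 2759 with no minimum fold. Those between VSMC-like and fibroblast-like cells (3727) numbered 5998, 7182 and 6314. Leaving out each library in turn gave 1118 to 1153 and 3704 to 3758 genes. The same moved Des between -1.45 and -0.94, Krt18 between -3.17 and -3.09, Nes between -0.83 and -0.65 and Synm between 1.02 and 1.19 in VSMC2-like over VSMC1-like cells. The causes were not tested. Clustering with all genes, or on log-normalized counts, gave no resolution with exactly 2 subclusters of at least 5%, and the first with at least 2 was used. No paired analysis was possible because, for CTL and LDS mice, no column carries a replicate number in the pooled count matrix. Mice are numbered within CTL and within LDS by their labels, and those numbers are not paired with the libraries. Log2 ratios between cell groups were taken within each library. Ratios of sums, Fano factors and shares of thinned cells not given by library or as a library median pooled the cells of all libraries. Depth limits Krt8 most, with 4 UMIs in VSMC2-like cells, and sets no limit on Lmna, whose ratio of sums had a counting interval of 0.977 to 1.02.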

Other observations

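Several intermediate filament genes outside the 7 members lay under the limit of 10 CPM for a call and are named after their values were seen. Krt80, an epithelial keratin, had a median over libraries of 0.802 CPM in VSMC2-like cells, against 5.27 CPM in VSMC1-like cells. Krt80 was lower in VSMC2-like cells in 6 of 6 libraries, the direction of Krt8, and rested on 11 and 342 UMIs. Krt1, a keratin of the differentiating epidermis, had the opposite direction. Its median was 3.18 CPM in VSMC2-like cells and 0.122 CPM in VSMC1-like cells, higher in 6 of 6 libraries, on 40 and 9 UMIs.

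Among genes more abundant outside the muscle cells, Lmnb1, which encodes lamin B1 of the nuclear lamina, was at 3.26 CPM in VSMC-like cells and at 6.72 CPM in fibroblast-like cells. Lmnb1 was lower in VSMC-like cells in 6 of 6 libraries, on 286 and 640 UMIs, whereas Lmna was higher in 5 libraries and lower in 1. Krt19, a keratin of simple epithelia, had 0 UMIs in VSMC-like cells and 54 in fibroblast-like cells. Krt20, a keratin of the intestinal lining, had 2 and 105 UMIs. Gfap, the intermediate filament protein of astrocytes, had 17 UMIs in VSMC-like cells and 149 in fibroblast-like cells.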
